A study of Homo sapiens with 21 samples.

Results

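The 32 genes described here encode enzymes that make or recycle nucleotides, with 6 enzymes of the pentose phosphate pathway that supply their sugar. They were taken by symbol from a table of 42339 genes. All 32 had a value in each of the 21 libraries, the lowest being 20 counts, and all 32 were tested in each of the 4 comparisons. RNA-seq was performed on BT-549 cells, a line derived from a triple-negative breast cancer (TNBC) and wild-type for BRCA1, as 3 libraries in each of 7 groups. The 2D cells were an untreated monolayer in medium with serum. The 3D cells were untreated mammospheres at serial passage 6, grown on ultra-low attachment plates in mammosphere medium. A further group of passage 6 mammospheres received 0.75 μmol/L GO-203, a peptide inhibitor of the MUC1-C subunit. The tet-MUC1shRNA mammospheres (passage 6) and the tet-MYCshRNA mammospheres (passage 8) carried 1 doxycycline-inducible shRNA each and were given 0.1% DMSO as vehicle or 500 ng/ml doxycycline (DOX). Medium and growth format differed together between 2D and 3D cells, DOX and silencing came together in both tet lines, and line and passage came together between the tet lines, so these cannot be told apart.

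Library totals ran from 38026597 to 99751717 counts, and 0.27% to 0.48% of a library's counts fell on the 32 genes. The line's markers VIM (1076 to 2486 CPM, the count scaled to a common library size) and ZEB1 (88.0 to 339 CPM) were present, whereas ESR1, PGR, CDH1 and EPCAM did not exceed 1.51 CPM and ERBB2 lay at 18.4 to 42.0 CPM. Of 9 markers of leukocytes, endothelium, hepatocytes and red cells, only PECAM1 exceeded 1.5 CPM in any library, with a highest value of 10.1. MUC1 was counted at 101, 83.2 and 86.6 CPM in the vehicle-treated tet-MUC1shRNA libraries and at 19.7, 21.2 and 23.3 CPM with DOX, a log2 fold change of -2.06 (SE 0.077, adjusted p = 1.08e-13) by edgeR's quasi-likelihood test with Benjamini-Hochberg adjustment over all genes tested, which gives every adjusted p below. MYC was at 439, 418 and 386 CPM in the vehicle-treated tet-MYCshRNA libraries and at 244, 279 and 297 CPM with DOX, a log2 fold change of -0.62 (SE 0.079, adjusted p = 7.94e-05). On MUC1 silencing MYC was not lower, with a log2 fold change of 0.25 (SE 0.042, adjusted p = 9.79e-06). MYC rose by a log2 of 2.76 in 3D vs. 2D cells, and its log2 fold change with GO-203 was -0.012 (SE 0.050, adjusted p = 0.909). MUC1 had log2 fold changes of 1.93 (SE 0.073, adjusted p = 2.29e-14) in 3D vs. 2D cells, 0.33 (SE 0.070, adjusted p = 0.00169) with GO-203 and 1.25 (SE 0.11, adjusted p = 4.34e-06) on MYC silencing.

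Nucleotides are built by a pair of de novo routes. The pyrimidine route runs through CAD, DHODH and UMPS to UMP, and CTP synthases then make CTP. The purine route adds a ring step by step to phosphoribosyl pyrophosphate (PRPP), which PRPS1 and PRPS2 make from ribose 5-phosphate, and ends at IMP, from which IMPDH1, IMPDH2 and GMPS make GMP. Ribonucleotide reductase (RRM1 and RRM2), TYMS and TK1 provide deoxynucleotides for DNA synthesis, salvage enzymes return bases and nucleosides to the pool, and the pentose phosphate pathway yields ribose 5-phosphate and NADPH. MYC is a known activator of many of these genes in proliferating cells, and it binds the E-box CACGTG.

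Promoter sequence of 300 bases, from 250 before to 50 after the start site (RefSeq, GRCh38.p14), was available for 30 of the 32 genes, all but ADSL and IMPDH2. CACGTG, which reads the same on both strands, was found in 5 of these 30 promoters (16.7%), compared with 1360 of 15345 promoters of protein-coding genes (8.86%). The 5 are shown because they hold the motif that MYC binds. They are written 5′ to 3′ in the direction of transcription, with the E-box in capitals.
DHODH (chr16:72008494-72008793, plus strand): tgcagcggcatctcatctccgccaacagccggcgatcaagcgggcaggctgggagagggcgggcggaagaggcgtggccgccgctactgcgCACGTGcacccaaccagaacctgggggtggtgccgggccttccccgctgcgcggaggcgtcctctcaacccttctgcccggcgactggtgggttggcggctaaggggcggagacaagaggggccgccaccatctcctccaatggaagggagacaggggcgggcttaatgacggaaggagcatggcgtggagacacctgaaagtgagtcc
PPAT (chr4:56435566-56435865, minus strand): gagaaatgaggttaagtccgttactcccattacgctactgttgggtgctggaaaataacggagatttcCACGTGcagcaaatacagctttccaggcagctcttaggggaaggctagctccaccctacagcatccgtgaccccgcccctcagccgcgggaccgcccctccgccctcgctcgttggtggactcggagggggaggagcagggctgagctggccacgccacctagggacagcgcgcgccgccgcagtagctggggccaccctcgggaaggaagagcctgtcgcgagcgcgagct
ATIC (chr2:215311809-215312108, plus strand): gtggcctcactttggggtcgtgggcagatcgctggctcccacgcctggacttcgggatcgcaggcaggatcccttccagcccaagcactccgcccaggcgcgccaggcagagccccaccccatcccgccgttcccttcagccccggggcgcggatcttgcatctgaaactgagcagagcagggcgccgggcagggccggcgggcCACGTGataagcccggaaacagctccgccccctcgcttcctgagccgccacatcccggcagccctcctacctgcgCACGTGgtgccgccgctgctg
NME1 (chr17:51153309-51153608, plus strand): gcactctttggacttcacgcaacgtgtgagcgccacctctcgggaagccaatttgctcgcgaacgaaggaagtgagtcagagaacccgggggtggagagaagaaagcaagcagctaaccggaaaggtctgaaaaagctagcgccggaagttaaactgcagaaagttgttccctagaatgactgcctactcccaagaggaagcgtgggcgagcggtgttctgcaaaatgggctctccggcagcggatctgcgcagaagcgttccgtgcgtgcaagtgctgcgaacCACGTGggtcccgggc
AMPD2 (chr1:109619587-109619886, plus strand): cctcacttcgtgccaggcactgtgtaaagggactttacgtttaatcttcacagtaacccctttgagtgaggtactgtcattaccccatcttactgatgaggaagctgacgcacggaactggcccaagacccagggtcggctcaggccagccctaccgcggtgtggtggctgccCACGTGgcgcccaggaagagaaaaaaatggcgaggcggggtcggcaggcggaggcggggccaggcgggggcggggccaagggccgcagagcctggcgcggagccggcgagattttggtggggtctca
The first base of the E-box lay 159 bases before the start site in DHODH, 182 in PPAT and 77 in AMPD2. ATIC had one 46 bases before the start and another within its transcribed part, and the single one of NME1 lay within its transcribed part. The E2F-type motifs TTTCCCGC and TTTGGCGC, searched on both strands, were found in 3 of the 30 promoters (10.0%), those of GART, PRPS2 and TYMS, compared with 489 of 15345 (3.19%). PPAT (chr4:56393362-56435615, minus strand) and PAICS (chr4:56435741-56464578, plus strand) lie head to head with 125 bases between them in the annotation of GRCh38 (GENCODE release 44), so the PPAT window reaches past the annotated edge of PAICS, although not to the PAICS start site of the promoter table. Genes whose window lacks CACGTG, such as PFAS and PRPS1, fell on MYC silencing as well. These matches are letters in a window, and no binding was measured in these libraries.

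Levels per length differed widely between the enzymes. In 2D cells, PGD, the NADPH-producing dehydrogenase of the pentose phosphate pathway, stood at 126 ± 12.4 CPM per kb of transcript (SD, n = 3) and TKT at 107 ± 7.57. PAICS (83.2 ± 2.90), HPRT1 (83.1 ± 3.98), IMPDH2 (77.2 ± 5.08) and NME1 (75.1 ± 3.55) followed. DHODH (1.86 ± 0.0400), ADSL (1.77 ± 0.209) and NME2 (0.873 ± 0.325) were lowest. The low values of NME2 and ADSL, and the level of IMPDH2, are uncertain: 87.39% of the NME2 transcript, 46.97% of NME1, 30.65% of ADSL and 98.79% of IMPDH2 overlaps exons of another annotated gene on the same strand, and the way shared reads were counted is not given in the sources used here. RPIA had the widest range over the 7 groups, with its highest group mean 5.99 times its lowest, followed by IMPDH1 (4.58) and PRPS1 (4.08), and PGD had the narrowest (1.19). The lowest group mean was that of MYC-silenced mammospheres for 18 of the 32 genes, of 2D cells for 7 and of MUC1-silenced mammospheres for 6. For 1 gene it was that of the vehicle-treated tet-MYCshRNA mammospheres. The same counts were not taken over all genes, so whether 18 is many for this set cannot be said.

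**Figure D1:**
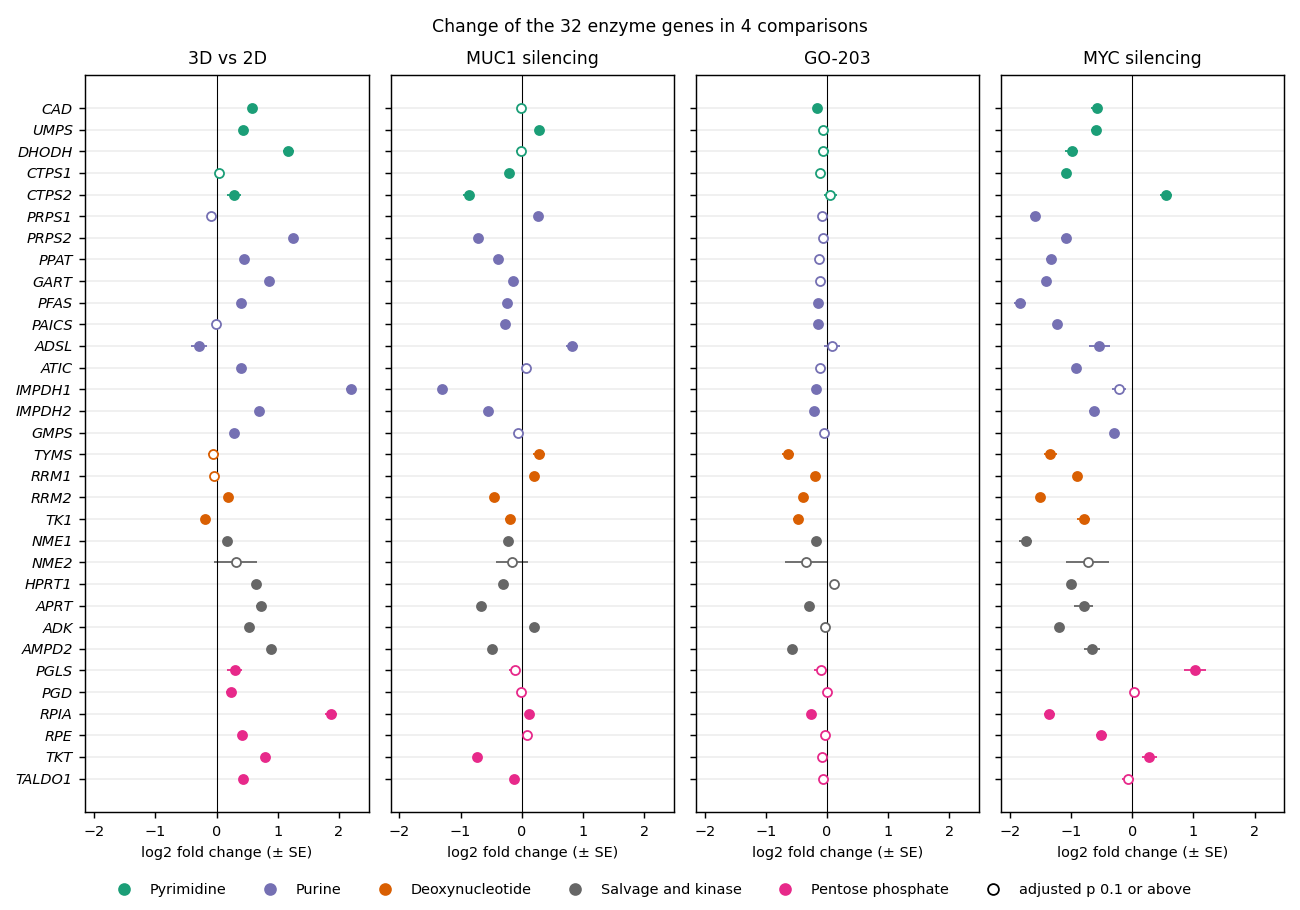
Log2 fold change (x axis, with standard error bars) of the 32 enzyme genes (rows, coloured by role) in the 4 comparisons, from fits on 6 libraries each. Filled points passed at an adjusted p below 0.1. Most genes lie right of 0 in 3D vs. 2D cells (24 higher, 2 lower) and left of 0 on MYC silencing (25 lower, 3 higher), whereas MUC1 silencing (17 lower, 7 higher) and GO-203 (13 lower) gave smaller changes.

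Nucleotide enzymes were mostly upregulated in 3D vs. 2D cells. Of the 32 genes, 24 rose and 2 fell at an adjusted p below 0.1, and 10 rose by over 1.5-fold. Among all 19190 genes tested, 32% rose, 31.7% fell and 17.9% rose by over 1.5-fold. The median log2 fold change was 0.41 over the 32 genes and -0.0074 over all genes. None fell by over 1.5-fold with edgeR or with DESeq2, and the 2 that fell were also the only ones to fall at an unadjusted p below 0.05. All 6 pentose phosphate genes, 8 of 11 purine genes, 5 of 6 salvage enzymes and kinases and 4 of 5 pyrimidine genes rose, whereas of the 4 deoxynucleotide enzymes 1 rose and 1 fell.

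In the pyrimidine route, DHODH, the mitochondrial dehydrogenase of the pathway, was at 8.76, 8.83 and 8.48 CPM in 2D cells and at 21.2, 18.7 and 19.1 CPM in 3D cells, with a log2 fold change of 1.17 (SE 0.094, adjusted p = 2.15e-09). CAD, which catalyses the first steps, rose by 0.58 and UMPS, which makes UMP, by 0.43. CTPS1, the more abundant CTP synthase, had a log2 fold change of 0.039 (SE 0.054, adjusted p = 0.555).

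In the purine route, PRPS2 went from 52.1, 50.9 and 53.9 CPM in 2D cells to 119, 119 and 134 CPM in 3D cells, with a log2 fold change of 1.24 (SE 0.061, adjusted p = 1.59e-12). PRPS1, which makes the same product, was at 88.7, 86.02 and 81.6 and 77.8, 76.02 and 86.1 CPM, and the groups overlapped. GART, a trifunctional enzyme of the ring-building steps, was at 202, 194 and 189 CPM in 2D and 346, 342 and 371 CPM in 3D cells, with a log2 fold change of 0.85 (SE 0.054, adjusted p = 6.63e-11). The largest change of all 32 genes was that of IMPDH1, one of the paired enzymes that commit IMP to GMP: it was at 14.95, 14.9 and 12.2 CPM in 2D and 69.9, 59.5 and 62.8 CPM in 3D cells, with a log2 fold change of 2.19 (SE 0.085, adjusted p = 3.17e-14). Every 3D library lay far above every 2D library for IMPDH1, GART and PRPS2, and 32.3% of all genes were separated in this direction. IMPDH2 rose by 0.70, PPAT, the committed step, by 0.45, and PFAS, ATIC and GMPS by 0.40, 0.40 and 0.29. PAICS had a log2 fold change of -0.0089 and did not pass, and ADSL fell by 0.29 (adjusted p = 0.0613).

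In the pentose phosphate pathway, RPIA, the isomerase that forms ribose 5-phosphate, was at 9.12, 7.46 and 8.24 CPM in 2D and 30.8, 28.4 and 31.6 CPM in 3D cells, with a log2 fold change of 1.87 (SE 0.092, adjusted p = 1.5e-12). TKT, the transketolase of the non-oxidative branch, was at 311, 346 and 303 and 573, 529.7 and 566 CPM, with a log2 fold change of 0.79 (SE 0.058, adjusted p = 5.19e-10). TALDO1, RPE, PGLS and PGD rose by 0.43, 0.42, 0.29 and 0.23. Of the salvage enzymes and kinases, AMPD2, an AMP deaminase, rose by 0.89, APRT by 0.72, HPRT1 by 0.64, ADK by 0.53 and NME1 by 0.17. Among the deoxynucleotide enzymes, RRM2, the regulatory subunit of ribonucleotide reductase, rose by 0.18 and TK1, a thymidine kinase of S phase, fell by 0.18, while RRM1 (-0.051) and TYMS (-0.054) did not pass. Of the small changes, 4 lost their call when 1 library was left out: CTPS2 (0.23 without 2D replicate 3, 0.21 without 3D replicate 3), PGLS (0.18 without 2D replicate 1, 0.26 without 3D replicate 1, 0.27 without 3D replicate 3), ADSL (-0.19 without 2D replicate 1, -0.22 without 3D replicate 2) and TK1 (-0.11 without 2D replicate 2, -0.14 without 3D replicate 2). With library size alone, NME1 (0.11) and PGLS (0.23) lost theirs, and PRPS1 (-0.16) and RRM1 (-0.11) passed as lower. PRPS1 passed as lower also with at least 10 counts in every library (-0.12) and without 3D replicate 3 (-0.15). ADSL lost its call with no filter beyond 1 count (-0.28). PGD still passed without 2D replicate 1, at 0.15.

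**Figure D2:**
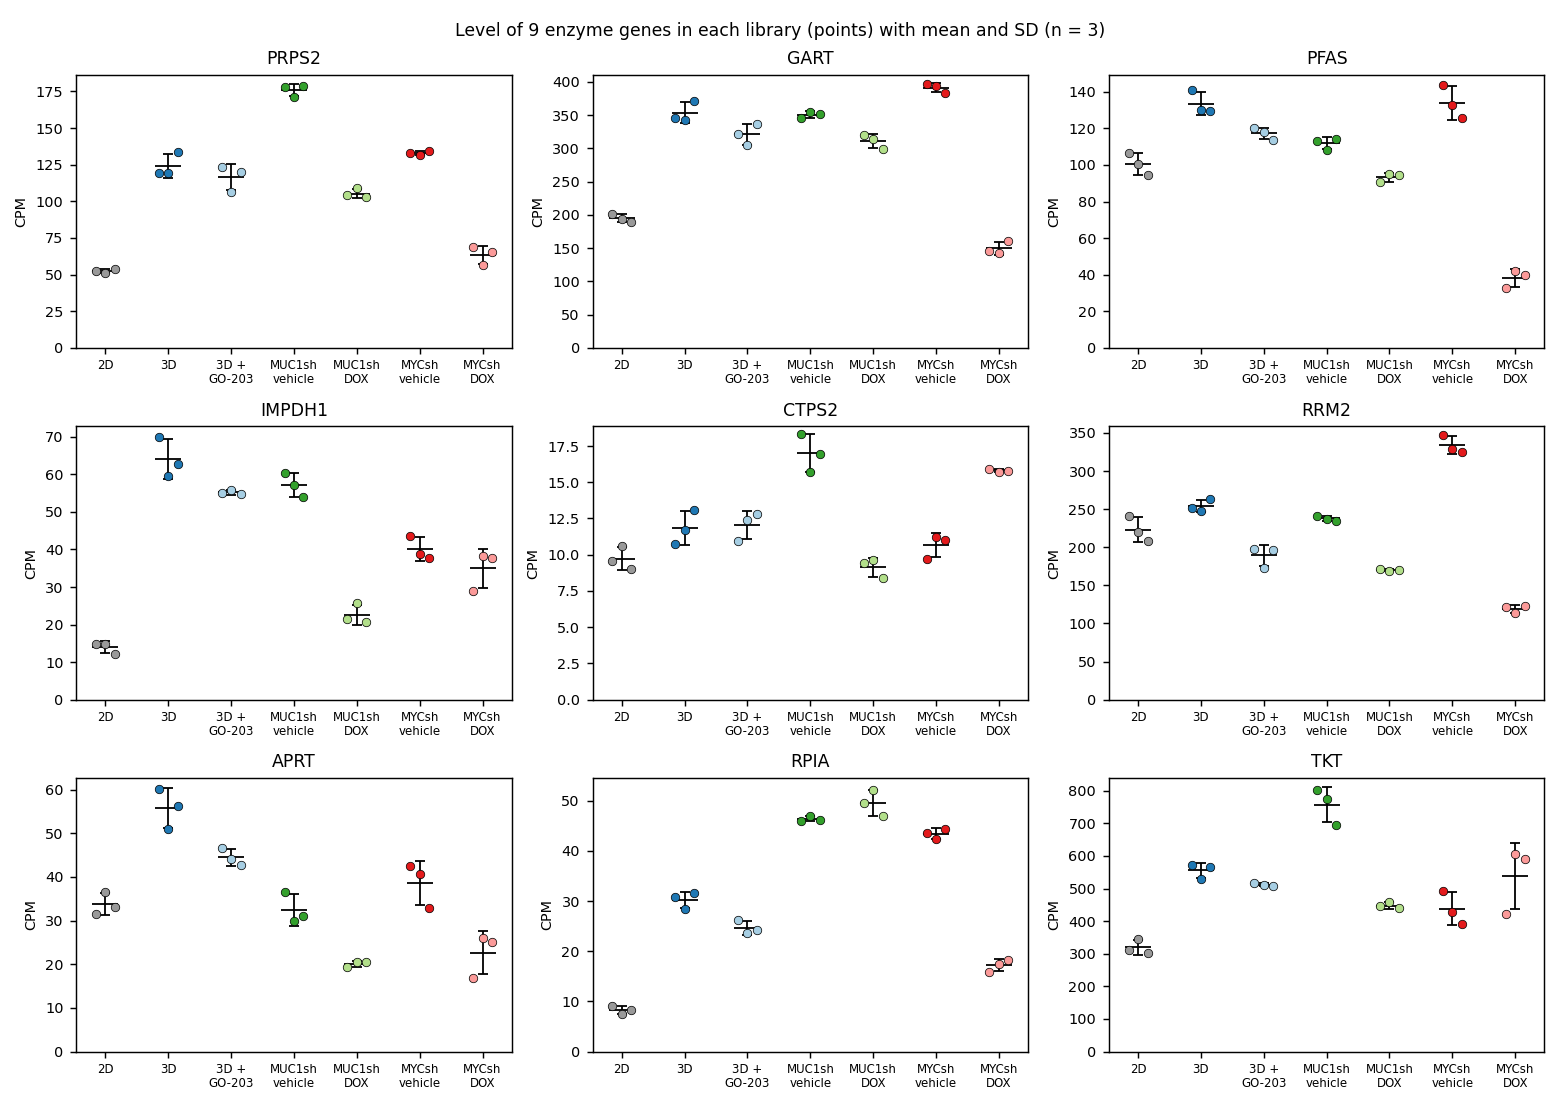
CPM (y axis, from 0) of 9 enzyme genes in the 3 libraries of each of the 7 groups, with the group mean and SD. PRPS2, GART, IMPDH1, APRT, RPIA and TKT stand higher in all 3D libraries than in 2D libraries, PFAS and GART fall to their lowest level on MYC silencing, and CTPS2 moves in opposite directions in the MUC1- and MYC-silenced lines.

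Silencing MUC1 changed the set in both directions and by less. Of the 32 genes, 17 fell and 7 rose, compared with 31.5% and 30.7% of the 19220 genes tested, and the median log2 fold change was -0.16 (all genes 0.024). By over 1.5-fold, 5 fell and 1 rose (14.6% and 17.5% of all genes). The balance depended on scaling: with library size alone, 11 members fell (2 by over 1.5-fold) and 12 rose. Of all 19220 genes, 4404 fell and 7978 rose at this scaling. The median of all genes moved to 0.19 while that of the members moved to 0.0082.

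The 5 genes that fell by over 1.5-fold came from several routes. IMPDH1 was at 60.2, 57.2 and 53.9 CPM with vehicle and 21.5, 25.7 and 20.6 CPM with DOX, with a log2 fold change of -1.31 (SE 0.070, adjusted p = 2.02e-14). CTPS2, the minor CTP synthase, was at 18.4, 15.7 and 16.98 and 9.40, 9.63 and 8.40 CPM, with a log2 fold change of -0.87 (SE 0.090, adjusted p = 1.64e-09). TKT was at 801, 776 and 696 and 446, 458 and 439 CPM, with a log2 fold change of -0.74 (SE 0.046, adjusted p = 1.21e-13). In these 3 genes, every DOX library lay below every vehicle library. With library size alone TKT came to -0.57, below the 1.5-fold mark. PRPS2 was at 178, 171 and 179 CPM with vehicle and 104, 109 and 103 CPM with DOX, with a log2 fold change of -0.72 (SE 0.042, adjusted p = 8.42e-15). APRT, which salvages adenine, was at 36.6, 29.8 and 31.005 and 19.4, 20.6 and 20.4 CPM, with a log2 fold change of -0.67 (SE 0.074, adjusted p = 6.82e-09). The groups did not overlap for either gene, as for 32.8% of all genes in this direction. With library size alone PRPS2 came to -0.55 and APRT to -0.50, which passed but by less than 1.5-fold.

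Smaller falls were seen for IMPDH2 (-0.56), AMPD2 (-0.49), RRM2 (-0.46), PPAT (-0.39), HPRT1 (-0.31) and PAICS (-0.28). The 7 genes that rose were ADSL (0.81, from 8.07 ± 0.866 to 13.98 ± 1.20 CPM, SD, n = 3), UMPS (0.28), TYMS (0.28), PRPS1 (0.26), ADK (0.20), RRM1 (0.19) and RPIA (0.12). The subunits of ribonucleotide reductase changed in opposite directions, RRM1 from 121, 118 and 117 to 137, 134 and 130.1 CPM and RRM2 from 242, 238 and 235 to 172, 169 and 170.4 CPM. The groups overlapped for neither subunit, nor for ADSL, as for 29.6% of all genes in the rising direction. Under library size alone, the falls of CTPS1, PFAS, TK1 and NME1 (log2 fold changes of -0.21, -0.24, -0.19 and -0.23) no longer passed, and those of GART (-0.15) and TALDO1 (-0.14) turned to 0.017 and 0.030, also without passing. Leaving out 1 library ended the calls of RPIA (0.11 and 0.12 without vehicle replicates 1 and 3, 0.13 and 0.091 without DOX replicates 1 and 2), TALDO1 (-0.10 without vehicle replicate 1, -0.088 without DOX replicate 3), TK1 (-0.18 without vehicle replicate 3, -0.14 without DOX replicate 1) and TYMS (0.21 without DOX replicate 1). RPIA and TALDO1 also lost theirs with all 21 libraries in one fit (0.10 and -0.16), and RPIA with no filter beyond 1 count (0.12). With at least 10 counts in every library, TALDO1 (-0.086) and TK1 (-0.14) lost their calls, and ATIC (0.11) and RPE (0.14) passed as higher. ATIC also passed without DOX replicate 3 (0.11), and with library size alone ATIC (0.23), RPE (0.25), CAD (0.15), PGD (0.15) and GMPS (0.11) passed as higher.

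GO-203, compared with the same 3D libraries that served against 2D cells, lowered 13 of the 32 genes, where 13.3% of the 18488 genes tested fell. None rose with edgeR, with DESeq2 or at an unadjusted p below 0.05, compared with 11.5% of all genes (3.64% by over 1.5-fold), and the median log2 fold change was -0.12 (all genes 0.015). Only TYMS fell by over 1.5-fold (2.04% of all genes). All 4 deoxynucleotide enzymes fell.

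TYMS, which makes thymidylate, was at 17.5, 17.5 and 17.3 CPM in 3D cells and 12.5, 9.95 and 10.4 CPM with GO-203, with a log2 fold change of -0.64 (SE 0.10, adjusted p = 8.12e-06). TK1 was at 30.7, 28.99 and 30.9 and 21.6, 20.9 and 21.1 CPM, with a log2 fold change of -0.48 (SE 0.071, adjusted p = 5.39e-06). RRM2 was at 252, 247 and 263 and 198, 173 and 197 CPM, with a log2 fold change of -0.39 (SE 0.055, adjusted p = 2.68e-06). RRM1, the catalytic subunit, fell by 0.20 (adjusted p = 0.00827), and no GO-203 library reached a 3D library for any of the 4 genes, as for 19.8% of all genes. TYMS shares 47.91% of its exon bases with genes on the opposite strand. The 22 genes of an S phase and mitosis list moved the same way beside them: 18 fell and 4 did not pass, with a median of -0.28, and their summed level was 3804 to 3922 CPM in 3D cells and 2952 to 3242 CPM with GO-203. Whether cycling cells had a part in the falls of TYMS, TK1, RRM1 and RRM2 was not tested.

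Outside these, AMPD2 was at 67.1, 61.3 and 65.3 CPM in 3D cells and 41.7, 42.5 and 43.5 CPM with GO-203, with a log2 fold change of -0.57 (SE 0.058, adjusted p = 6.46e-09). It passed 1.5-fold as well when 3D replicate 2 was left out (-0.60) or all 21 libraries were fitted together (-0.60). APRT fell by 0.30 and RPIA by 0.26, and these falls held without any 1 library. IMPDH2 (-0.21), IMPDH1 (-0.18), NME1 (-0.17), CAD (-0.17), PFAS (-0.15) and PAICS (-0.15) passed with small changes, and each lost its call without at least 1 library. Without 3D replicate 1 only 8 of the 32 genes fell, the values being -0.14 for IMPDH2, -0.11 for IMPDH1, -0.16 for NME1, -0.12 for CAD and -0.11 for PFAS. PAICS lost its call without 3D replicate 3 (-0.12) or GO-203 replicate 2 (-0.11), and NME1 likewise (-0.15 and -0.13). IMPDH1, PFAS and CAD were also lost without GO-203 replicate 1 (-0.18, -0.17 and -0.17) or GO-203 replicate 3 (-0.16, -0.12 and -0.14), and CAD without 3D replicate 2 (-0.15). PRPS2 (-0.059), GART (-0.11), DHODH (-0.059) and TKT (-0.088), which had risen in 3D cells, did not pass. With DESeq2, GART (-0.11), CTPS1 (-0.12) and PPAT (-0.13) passed as lower. With all 21 libraries in one fit CTPS1 (-0.14) passed as lower, and IMPDH1 (-0.21) and NME1 (-0.21) did not. PPAT also passed with the replicate number as a block (-0.13) and without GO-203 replicate 3 (-0.17). ATIC passed as lower without GO-203 replicate 1 (-0.17). HPRT1 passed as higher when 3D replicate 3 was left out (0.16).

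Silencing MYC lowered most of the set. Of the 32 genes, 25 fell and 3 rose, compared with 28.1% and 30.3% of the 19951 genes tested. By over 1.5-fold, 21 fell and 1 rose (17% and 20.6% of all genes), and the median log2 fold change was -0.85 (all genes 0.0088). All 4 deoxynucleotide enzymes fell (median -1.12), as did 10 of 11 genes of the purine route (median -1.09) and 5 of 6 salvage enzymes and kinases (median -0.90). The pentose phosphate genes did not share this direction: 2 fell, 2 rose and 2 did not pass.

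PFAS, which adds a ring nitrogen, fell furthest: it was at 144, 133 and 125 CPM with vehicle and 32.5, 41.9 and 39.8 CPM with DOX, with a log2 fold change of -1.84 (SE 0.10, adjusted p = 1.61e-07). PRPS1 was at 88.5, 84.7 and 77.9 and 26.6, 28.1 and 30.2 CPM, with a log2 fold change of -1.58 (SE 0.079, adjusted p = 1.04e-07). GART was at 397, 394 and 384 and 145, 143 and 161 CPM, with a log2 fold change of -1.41 (SE 0.063, adjusted p = 4.9e-08). For these 3 purine genes every DOX library lay far below every vehicle library, a separation in this direction that 28.3% of all genes had. PPAT and PAICS, the head-to-head pair, fell by 1.33 and 1.23. PRPS2, ATIC, IMPDH2, ADSL and GMPS fell by 1.09, 0.91, 0.62, 0.54 and 0.29, and IMPDH1 had a log2 fold change of -0.21 (SE 0.11, adjusted p = 0.139). ADSL, whose DOX libraries were at 6.35, 4.10 and 6.46 CPM, still passed without DOX replicate 2, the lowest, at -0.36. IMPDH1 passed as lower without DOX replicate 2 (-0.28), with no filter beyond 1 count (-0.25), with library size alone (-0.24) and with all 21 libraries in one fit (-0.19), and its value was -0.10 without DOX replicate 1.

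NME1, a nucleoside diphosphate kinase, was at 93.1, 98.9 and 94.4 CPM with vehicle and 25.3, 26.6 and 34.8 CPM with DOX, with a log2 fold change of -1.74 (SE 0.11, adjusted p = 4.9e-07). ADK, HPRT1, APRT and AMPD2 fell by 1.19, 1.01, 0.79 and 0.66. DOX replicate 1, the library least like the others of its group, was the lowest for APRT (16.9, 25.96 and 25.1 CPM) and AMPD2 (34.98, 54.1 and 48.8 CPM), and without it the log2 fold changes were -0.62 and -0.50, both of which passed. In the pyrimidine route, CTPS1 was at 191, 192 and 188 and 92.3, 86.8 and 94.4 CPM, with a log2 fold change of -1.08 (SE 0.059, adjusted p = 1.89e-07), and DHODH, UMPS and CAD fell by 0.99, 0.59 and 0.58. CTPS2 rose, from 9.70, 11.2 and 11.02 to 15.9, 15.7 and 15.8 CPM, with a log2 fold change of 0.55 (SE 0.10, adjusted p = 0.000959). All its DOX libraries lay above all vehicle libraries, as for 31.2% of all genes.

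Of the deoxynucleotide enzymes, RRM2 was at 347, 329 and 326 CPM with vehicle and 121, 113 and 123 CPM with DOX, with a log2 fold change of -1.51 (SE 0.061, adjusted p = 2.8e-08). TYMS, RRM1 and TK1 fell by 1.34, 0.90 and 0.80. All 22 genes of the S phase and mitosis list fell as well, with a median of -0.86, from a summed 4710 to 4887 CPM with vehicle to 2573 to 2720 CPM with DOX. The part of cycling cells in the falls of RRM2, TYMS, RRM1 and TK1 was not tested.

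Among the pentose phosphate genes, RPIA was at 43.6, 42.3 and 44.5 CPM with vehicle and 15.9, 17.4 and 18.4 CPM with DOX, with a log2 fold change of -1.36 (SE 0.084, adjusted p = 4.34e-07), and RPE fell by 0.51. PGLS, the lactonase of the oxidative branch, rose from 9.39, 8.44 and 7.07 to 12.5, 20.2 and 18.7 CPM, with a log2 fold change of 1.02 (SE 0.18, adjusted p = 0.000634). TKT was at 493, 429 and 392 and 422, 606 and 589.8 CPM, with a log2 fold change of 0.28 (SE 0.13, adjusted p = 0.0935). DOX replicate 1 was the lowest DOX library for both genes, and for TKT it lay within the vehicle range, the log2 fold change of TKT without it being 0.42. The TKT call was lost without vehicle replicate 2 (0.24) or 3 (0.18), without DOX replicate 2 (0.18) or 3 (0.21), with RLE factors (0.27), with library size alone (0.25) and with the replicate block (0.27). PGD and TALDO1 had log2 fold changes of 0.027 and -0.074 and did not pass. NME2 (-0.73) did not pass either, at under 1 CPM in every tet-MYCshRNA library, and passed without vehicle replicate 3 (-0.99), with library size alone (-0.75), with all 21 libraries in one fit (-0.71) and with at least 10 counts in every library (-0.74).

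**Figure D3:**
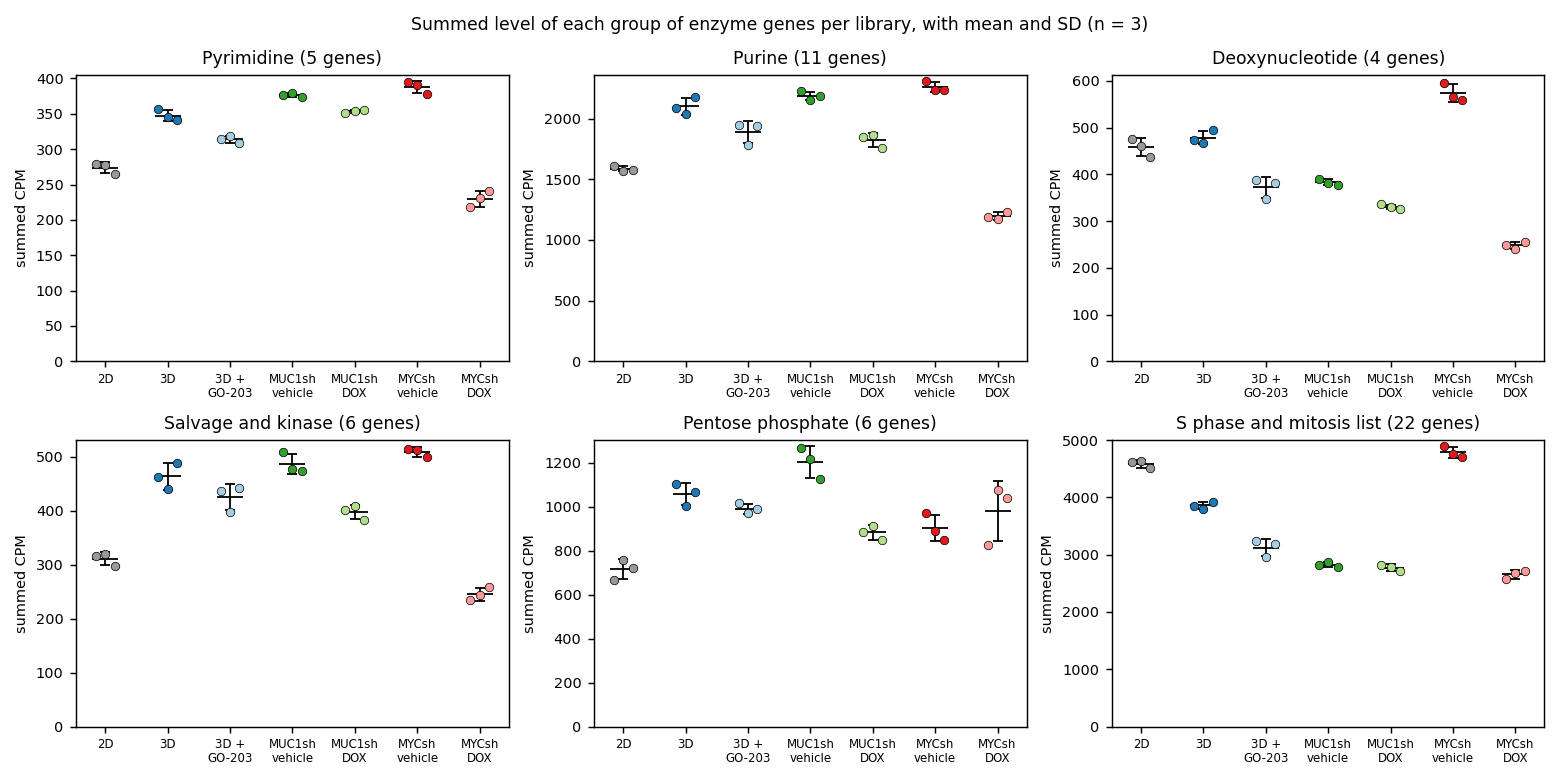
Summed CPM (y axis, from 0) of the genes of each role in the 3 libraries of every group, with mean and SD, beside the summed S phase and mitosis list. On MYC silencing the purine sum falls from 2237 to 2308 CPM to 1172 to 1234 CPM, while the pentose phosphate sum overlaps between vehicle and DOX.

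Summed over the 32 genes, the libraries held 3354, 3389 and 3298 CPM in 2D cells and 4484, 4294 and 4569 CPM in 3D cells. The sums were 4105, 3814 and 4060.3 CPM with GO-203. In the tet-MUC1shRNA line they were 4767, 4612 and 4536 CPM with vehicle and 3827, 3869 and 3669 CPM with DOX. In the tet-MYCshRNA line they were 4783, 4601 and 4522 CPM with vehicle and 2713, 2965 and 3029 CPM with DOX. MYC-silenced mammospheres thus lay below 2D cells, and all other mammosphere groups above them. MYC itself was not lowest in MYC-silenced mammospheres, where it averaged 274 CPM, compared with 85.4 CPM in 2D cells. In the tet-MUC1shRNA line MYC averaged 245 CPM with vehicle and 286 CPM with DOX. Untransduced mammospheres had 581 CPM of MYC, and 564 CPM with GO-203. The pentose phosphate sum was 969, 891 and 849 CPM with vehicle and 825, 1077 and 1040.3 CPM with DOX in the tet-MYCshRNA line, which overlapped, and 1265, 1215 and 1125 and 886, 913 and 848 CPM in the tet-MUC1shRNA line, which did not. In bulk RNA, fewer cells with a transcript and less of it per cell cannot be told apart.

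Since the tet lines share no library, their DOX effects could be compared directly in a fit over 12 libraries. The effects differed for 22 of the 32 genes, by over 1.5-fold at an adjusted p below 0.1, compared with 39.2% of the 21585 genes tested. Leaving out 1 library gave 21 to 24 genes. TK1, at 0.59, was the closest of these 22 to the 1.5-fold mark and ranged from 0.50 to 0.66. For 18 of the 22 the change on MUC1 silencing lay above that on MYC silencing. Over all 21585 genes, 5593 lay above and 5790 below at an adjusted p below 0.1, counted without the 1.5-fold mark. The widest gap was that of PRPS1, with a difference of log2 fold changes of 1.83 (SE 0.092, adjusted p = 3.32e-12), followed by TYMS (1.60), PFAS (1.58), NME1 (1.499) and RPIA (1.46). For the 4 others the change on MUC1 silencing lay below, namely CTPS2 with -1.43 (SE 0.14, adjusted p = 3.44e-08), PGLS (-1.16), IMPDH1 (-1.11) and TKT (-1.03). UMPS, ADSL, PRPS1, TYMS, RRM1, ADK and RPIA rose on MUC1 silencing and fell on MYC silencing, and CTPS2 and TKT did the reverse, with the limits on RPIA, TYMS and TKT given above. PRPS2 fell in both lines and its effects differed by 0.36 (SE 0.086, adjusted p = 0.00172), which was under 1.5-fold. IMPDH2, APRT and AMPD2 fell in both lines with differences of 0.051 (SE 0.091, adjusted p = 0.689), 0.11 (SE 0.20, adjusted p = 0.692) and 0.15 (SE 0.17, adjusted p = 0.494), although with library size alone those of IMPDH2 and AMPD2 were 0.26 (adjusted p = 0.0147) and 0.36 (adjusted p = 0.0472).

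**Figure D4:**
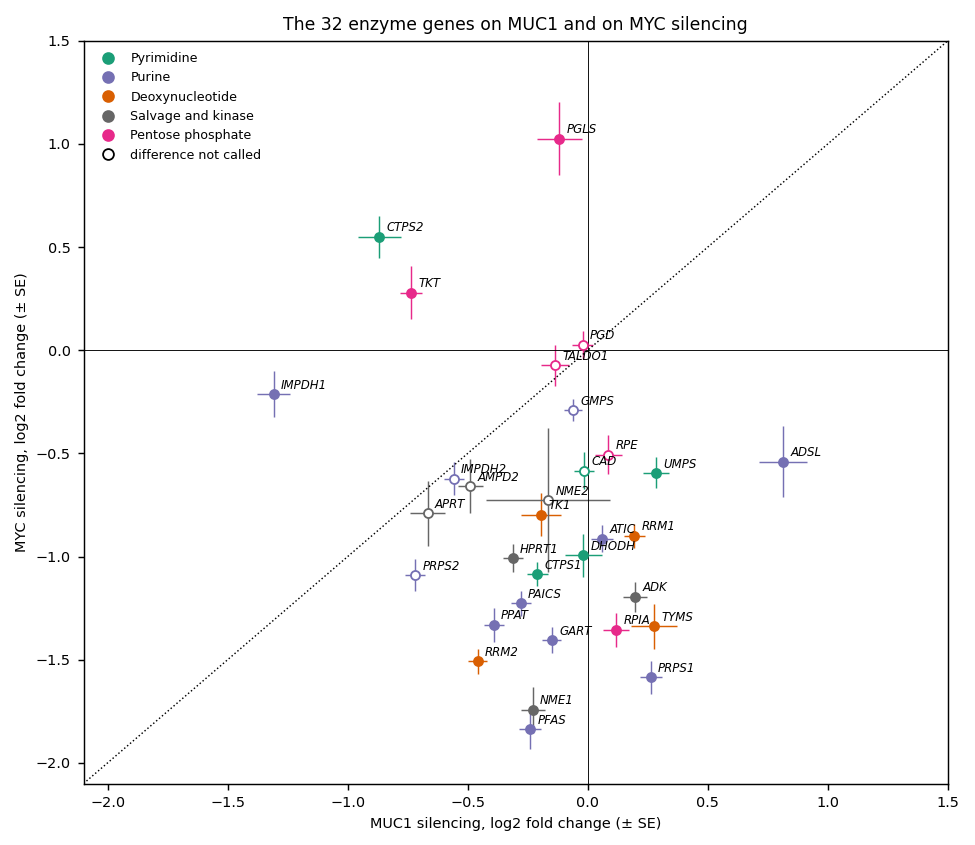
Log2 fold change on MUC1 silencing (x axis) against that on MYC silencing (y axis) for the 32 enzyme genes, with standard errors, coloured by role. Filled points are the 22 genes whose effects differed, 18 of them below the dotted line of equal change. The lower right quadrant holds the genes that rose on MUC1 silencing and fell on MYC silencing. It also holds ATIC and RPE, which did not pass on MUC1 silencing.

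The 3D libraries serve in both the 3D vs. 2D and the GO-203 comparison, so a low or high 3D library moves both in opposite directions, and the values are set side by side without a count of shared calls. AMPD2 had log2 fold changes of 0.89 in 3D vs. 2D cells, -0.49 on MUC1 silencing, -0.57 with GO-203 and -0.66 on MYC silencing. APRT had 0.72, -0.67, -0.30 and -0.79, and RRM2 had 0.18, -0.46, -0.39 and -1.51. For these 3 genes all 4 values passed, and the adjusted p stayed below 0.1 under every alternative run.

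Several enzymes come as pairs, and the balance within a pair shifted. The ratio of PRPS2 to PRPS1, per transcript length, was 0.513 in 2D cells and 1.30 in 3D cells, with log2 ratios of -1.02, -1.01 and -0.85 and 0.36, 0.39 and 0.38 in the libraries. It was 1.51 with vehicle and 0.765 with DOX on MUC1 silencing (0.62, 0.50 and 0.67 against -0.41, -0.39 and -0.36), and 1.33 and 1.87 on MYC silencing. PRPS1 was thus the more abundant of the pair in 2D and MUC1-silenced cells only. The ratio of CTPS2 to CTPS1 was 0.0983 and 0.0621 on MUC1 silencing and moved the other way on MYC silencing, from 0.0401 to 0.125. IMPDH2 exceeded IMPDH1 14.4-fold in 2D and 5.13-fold in 3D cells, and 5.01-fold with vehicle and 8.49-fold with DOX on MUC1 silencing. On MYC silencing it moved the other way, from 8.07-fold to 6.10-fold. RRM2 to RRM1 went from 1.93 to 1.23 on MUC1 silencing and from 1.69 to 1.11 on MYC silencing. In each of these ratios the groups did not overlap. The ratios are given as a description, with no test.

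**Figure D5:**
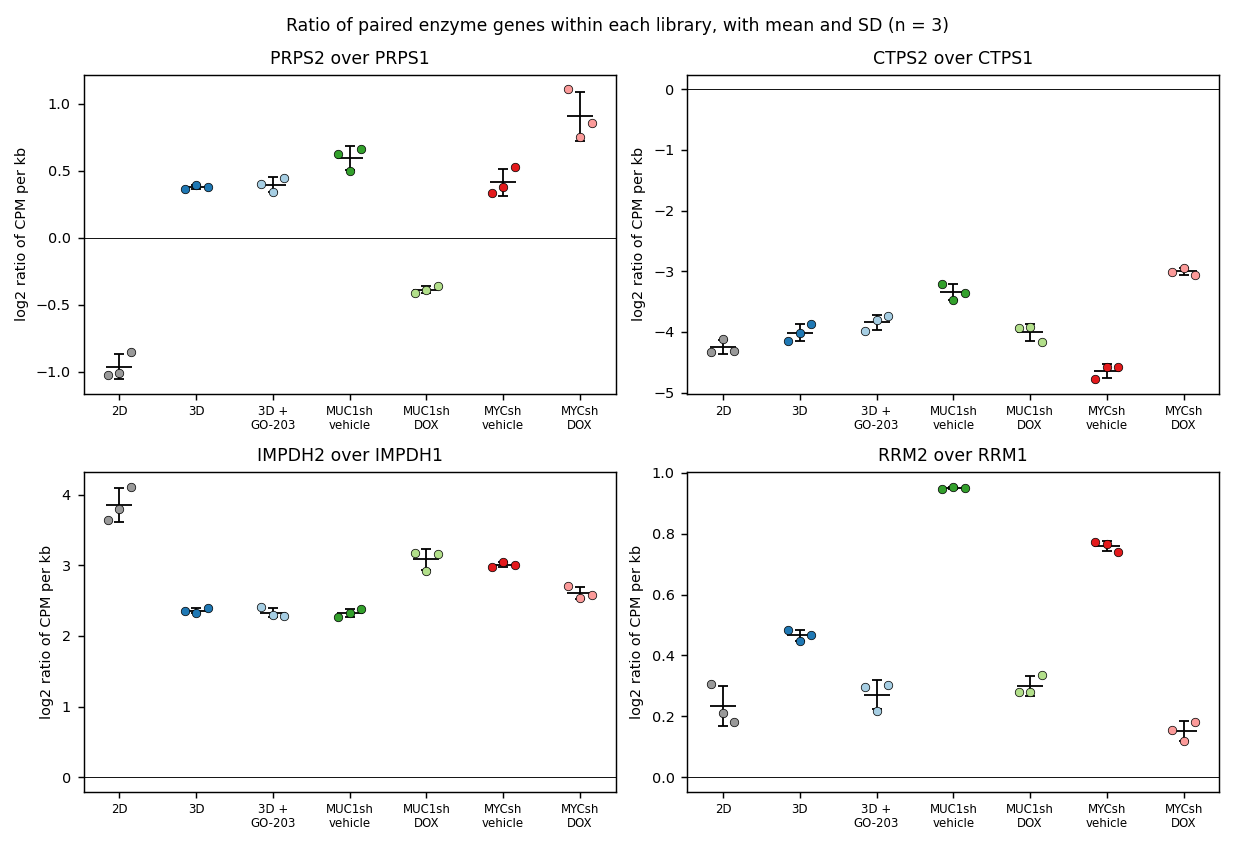
Log2 ratio of CPM per kb (y axis) of 4 enzyme pairs in the 3 libraries of every group, with mean and SD. PRPS2 over PRPS1 crosses 0 between 2D and 3D cells and again on MUC1 silencing, and CTPS2 over CTPS1 moves down on MUC1 silencing and up on MYC silencing.

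Other genes of these pathways were taken from fixed lists. Of 41 tested salvage, kinase and phosphatase genes, 23 rose and 7 fell in 3D vs. 2D cells, 11 rose and 15 fell on MUC1 silencing, 2 rose and 13 fell with GO-203, and 12 rose and 17 fell on MYC silencing. Of 8 tested sugar phosphate genes, 3 rose and 2 fell in 3D vs. 2D cells, 3 rose and 4 fell on MUC1 silencing, 1 rose and 2 fell with GO-203, and 2 rose and 3 fell on MYC silencing. The shares over all genes were 32% and 31.7%, 30.7% and 31.5%, 11.5% and 13.3%, and 30.3% and 28.1% in the same order. Among those with a mean of at least 100 counts, the largest changes in 3D cells were those of XDH, which forms uric acid and was at 0 to 0.0348 CPM in 2D and 7.30 to 8.18 CPM in 3D libraries, UPP1, a uridine phosphorylase (log2 fold change 3.25), and AK4, a mitochondrial adenylate kinase (2.84). On MUC1 silencing UPP1 rose by 2.55, XDH by 1.58, and AK4 fell by 1.43. With GO-203, NT5E, the ecto-5′-nucleotidase, fell by 0.91, NME3 by 0.39 and DTYMK by 0.38. On MYC silencing PNP, which cleaves purine nucleosides, fell by 2.35, the nucleoside transporter SLC29A1 by 2.13, and H6PD, the glucose 6-phosphate dehydrogenase of the endoplasmic reticulum, rose by 1.64. Beside them, the S phase and mitosis list had 7 genes higher and 10 lower in 3D vs. 2D cells (CCNA2 -0.87, CCNE1 0.74, MCM6 0.72) and 11 higher and 7 lower on MUC1 silencing (CCNE2 0.83, CCNA2 -0.69, CCNE1 0.58).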

How the data were processed

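Total RNA of BT-549 cultures grown in triplicate was made into stranded mRNA libraries and read from both ends. Reads were mapped by the authors to GRCh38 with STAR (version 2.7.3a in the submitters' processing notes) and summed over genes with featureCounts, and the deposited values are raw counts without normalization. Neither the annotation used for counting, nor its strand setting, nor the handling of reads with several matches is given in the sources used here. Genes left blank in whole blocks of libraries (4952 to 7587 genes) were read as 0, and none of the 32 was blank. Of 42339 identifiers, 42252 were matched to a symbol through GENCODE release 44 or a gene name table.

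In R 4.3.3, each comparison was fitted on its own 6 libraries with edgeR 4.0.16 (filterByExpr, TMM factors, robust quasi-likelihood test) and Benjamini-Hochberg adjustment over all genes tested. A gene passed at an adjusted p below 0.1, and a further call asked for over 1.5-fold. The standard error is the log2 fold change divided by the square root of F. CPM values were scaled by TMM factors over all 21 libraries, and CPM per kb used the canonical transcript. p-values measure the spread between these cultures. Counts of the 21 replicate pairs differed beyond sampling noise (chi-square divided by its degrees of freedom 4.36 to 52.8), so none was treated as a duplicate. Each fit was also run on counts simulated from its own fitted spread, with 200 genes changed by a log2 of 1. The share recovered was 86% for 3D vs. 2D, 83.5% for MUC1 silencing, 84.5% for GO-203 and 79% for MYC silencing. For the difference between the lines it was 60.5%. Of the unchanged genes, 15 to 31 were called. These simulated counts held no shift in composition, so they do not bear on the choice of scaling.

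The members and the lists were chosen with earlier results of these data known. All 32 members were named, and of the other pathway genes and the S phase and mitosis list the 3 with the largest passing change and a mean of at least 100 counts per comparison. Each comparison was repeated with DESeq2 1.42.0, RLE factors or library size alone, a minimum of 10 counts per library or no filter beyond 1 count, a stricter adjusted p below 0.05, a joint fit of the 21 libraries, the replicate number as a block, and each library left out in turn. Where an arm was left with 2 libraries, the spread was still pooled over the fit. No batch is given in the labels, nor the length of treatment.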

Additional observations from a re-analysis of the deposited data

Results flagged for a closer look

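For 22 of the 32 enzyme genes the effect of DOX differed between the tet-MUC1shRNA and the tet-MYCshRNA mammospheres, by edgeR's quasi-likelihood test of the difference over 12 libraries (adjusted p below 0.1 and a gap of over 1.5-fold, as for 39.2% of all genes). Values are the log2 fold change on MUC1 silencing minus that on MYC silencing. In the pyrimidine route the gap was 0.87 for UMPS, 0.96 for DHODH, 0.86 for CTPS1 and -1.43 for CTPS2. In the purine route it was 1.83 for PRPS1, 1.58 for PFAS, 1.34 for ADSL, 1.24 for GART, 0.96 for ATIC, 0.94 for PAICS, 0.93 for PPAT and -1.11 for IMPDH1. Among the deoxynucleotide enzymes it was 1.60 for TYMS, 1.08 for RRM1, 1.04 for RRM2 and 0.59 for TK1. The gap of TK1 was just past 1.5-fold and was 0.50 to 0.66 with 1 library left out, so that it lay below that mark in part of these fits. For salvage enzymes and kinases it was 1.499 for NME1, 1.38 for ADK and 0.68 for HPRT1. In the pentose phosphate pathway it was 1.46 for RPIA, -1.03 for TKT and -1.16 for PGLS. Line and passage came with the silenced gene and cannot be told apart from it.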

How the results depend on the processing

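Under the alternatives other than leaving out a library, 129 counts of changed enzyme genes stayed within 1.5 times of the reported ones and 7 did not. In 3D vs. 2D cells, the 2 genes that fell became 1 at an adjusted p below 0.05, 1 with no filter beyond 1 count and 4 with library size alone. On MUC1 silencing, library size alone gave 12 higher, 11 lower and 2 lower by over 1.5-fold, where 7, 17 and 5 were reported. Over all 19220 genes it gave 7978 higher and 4404 lower, where the main fit had 5896 and 6062. This scaling moved the median of all genes from 0.024 to 0.19, so these changes are relative to that shift. With all 21 libraries in one fit, 2 genes (TYMS and AMPD2) in place of 1 fell by over 1.5-fold with GO-203. Leaving out 1 library at a time gave 0 to 3 lower genes in 3D vs. 2D cells, the 0 being without 3D replicate 2 and a count of 1 without 2D replicate 1 or 2. For GO-203 it gave 8 to 12 lower genes, 0 to 1 higher gene and 1 to 2 genes lower by over 1.5-fold, the 8 being without 3D replicate 1, the 2 (TYMS and AMPD2) without 3D replicate 2 and the 1 higher gene (HPRT1) without 3D replicate 3.

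Some log2 fold changes turned sign. With library size alone they were -0.021 for CTPS1 between 3D and 2D cells, and those on MUC1 silencing were 0.15 for CAD, 0.15 for DHODH, 0.017 for GART, 0.11 for GMPS, 0.048 for PGLS, 0.15 for PGD and 0.030 for TALDO1. With at least 10 counts in every library, they were 0.035 for CAD, 0.033 for DHODH and 0.029 for PGD on MUC1 silencing. With no filter beyond 1 count, PGD had -0.0063 on MYC silencing. The difference between the lines turned to 0.14 for PGD and 0.13 for TALDO1 with library size alone, and for PGD to 0.0027 with no filter beyond 1 count and 0.011 with at least 10 counts in every library. Leaving out 1 library, signs turned for PAICS (-0.037 to 0.050) and TYMS (-0.14 to 0.030) in 3D vs. 2D cells, also for DHODH (-0.074 to 0.030) and PGD (-0.059 to 0.015) on MUC1 silencing. They also turned for DHODH (-0.14 to 0.022), CTPS2 (-0.0094 to 0.12), ADK (-0.071 to 0.0052), PGD (-0.044 to 0.048) and RPE (-0.058 to 0.0028) with GO-203, and for PGD (-0.027 to 0.089) and TALDO1 (-0.16 to 0.021) on MYC silencing. The difference between the lines turned for IMPDH2 (-0.031 to 0.093), APRT (-0.065 to 0.21), AMPD2 (-0.012 to 0.28) and TALDO1 (-0.18 to 0.0022). The causes of these shifts were not tested. Of the fold changes of single genes under these settings, libraries left out aside, 1221 kept direction and side of the threshold, 20 newly passed, 23 no longer passed and 16 turned sign.

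The labels do not say whether libraries of the same replicate number were handled together, and the main fits did not pair them. Deviations of same-numbered libraries correlated at -0.056 (3D vs. 2D), 0.037 (MUC1 silencing), 0.15 (GO-203) and -0.23 (MYC silencing) on average, and 1, 3, 5 and 0 of 6 libraries were closest to their own number. With the replicate block, 24 genes rose and 2 fell in 3D vs. 2D cells, 7 rose and 17 fell on MUC1 silencing, 14 fell with GO-203, 2 rose and 25 fell on MYC silencing, and 22 differed between the lines. At 38026597 counts or more per library, counting error was largest for NME2, which had the lowest count (20), and the 3 cultures per group limit the precision.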
